A study of Mus musculus with 4 samples.

Results

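Cells of Comma D beta, a mouse mammary epithelial line, were compared here by their surface Sca1. The comparison is the Sca1+ array minus the Sca1- array of cells that received no doxycycline (dox). These 2 samples are 2 of the 4 in the study, and each is a single array. The question the comparison addresses is how the Sca1+ and Sca1- cells of the line differ without dox. Both groups were cells of the same line, grown overnight in DMEM F12 with serum, insulin and EGF, then trypsinized, stained for Sca1 and sorted, with the same number of cells taken from each fraction. The other 2 arrays were Sca1+ and Sca1- cells given dox at 100 ng/ml for 1 day, and they are used only where the same difference is set beside that without dox. The title of the series names Bcl11b, but the labels do not say what dox acts on, so any transgene that the untreated cells may also carry is not described. The labels do not say whether the sorted fractions came from the same culture or from separate ones.

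Sca1 is a small glycolipid-anchored surface protein of the Ly6 family that is widely used to sort stem and progenitor cells of the mouse. The mammary epithelium has an outer basal layer, which carries keratins 5 and 14 and the factor p63, and an inner luminal layer, which carries keratins 8 and 18 and includes hormone-sensing cells and alveolar progenitors that depend on Elf5 and Kit. Comma D beta is an established line from mouse mammary tissue whose cells carry features of both layers. Its cells divide in culture, and dividing cells switch on replication genes at the entry to S phase and mitotic genes later, before and during division.

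Expression is given as a log2 level per gene from an Affymetrix 3' array, on which the deposited values stop at a floor of 3.32, the log2 of 10. Of 18194 genes with a named probe set, 12264 reached the pooled median of 3.63 on at least 1 of the 4 arrays and were analysed, each through the probe set whose mean was highest. The untreated Sca1+ and Sca1- arrays had 48.0% and 45.0% of probe sets at the floor and medians of 8.30 and 8.29 over the genes whose mean was at least 100 on the linear scale. Differences of the 42 spiked control probe sets, which carry no sample RNA, ran from -0.40 to 0.55 with a median of -0.12. None of the 42 reached 2-fold. With 1 array a side there is no replicate spread and no test, so a gene was counted as higher or lower at a 2-fold difference, which is 1 on the log2 scale. A difference from a value at the floor is a lower bound and is written as "at least". No probe set could be assigned to the gene of Sca1 itself, which was not analysed here, so the sort was not checked on its own marker.

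At the 2-fold rule, 376 genes stood higher in Sca1+ cells (3.07% of those analysed) and 408 stood lower (3.33%), together 6.39%. Which side held more genes depended on the scaling, with 643 higher and 276 lower once the arrays were set to the same median over all probe sets. Mitotic genes made up 62 of the higher genes, and luminal, defence, ion-transport and cartilage-type genes were among the lower ones. The largest differences were on the lower side: past 4-fold there were 74 lower and 22 higher genes, and at 8-fold the counts were 12 and 3. The median difference over all genes analysed was -0.01, with the 5th and 95th percentiles at -0.83 and 0.79. Differences were wider among dim genes, where 11.6% of genes with a mean level under 5 reached 2-fold against 2.23% of those at 10 or above. Of the higher genes, 207 had a brighter array at 100 or more on the linear scale, as did 162 of the lower genes. The plot of gene levels on the untreated arrays shows both groups along the whole range of levels.

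**Figure D1:**
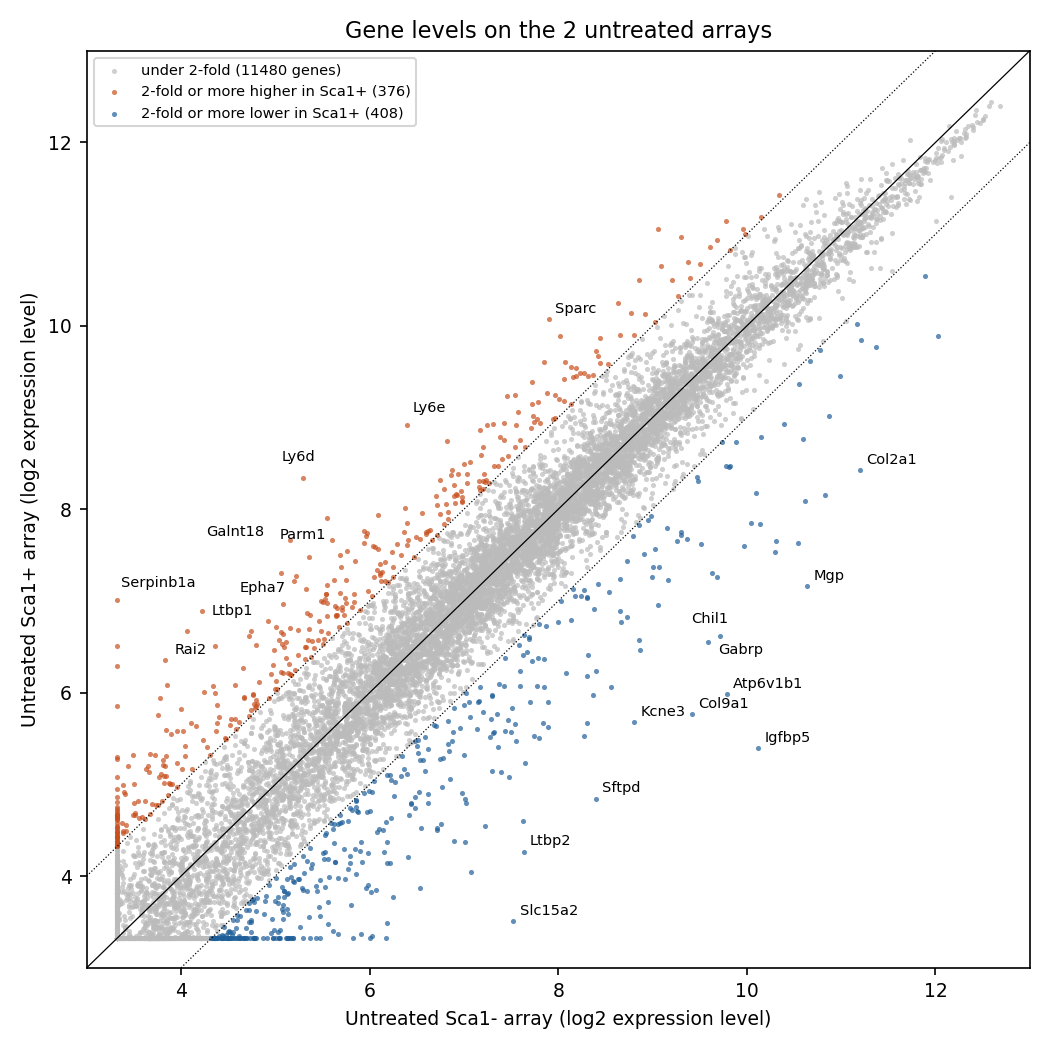
Each point is 1 of 12264 genes, with its log2 level on the untreated Sca1- array along the horizontal axis and on the untreated Sca1+ array along the vertical axis; the solid line marks equal levels and the dotted lines a 2-fold difference. The 376 higher genes (orange) lie above the upper dotted line and the 408 lower genes (blue) below the other, with Igfbp5 the farthest below the line of equal levels.

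Other probe sets of the same gene on the same arrays gave a check of the measurement, though not of the condition. Among higher genes 171 had a second named probe set, and in 159 of these (93.0%) it had the same sign; it also reached 2-fold in 86. Among lower genes the second probe set had the same sign in 149 of 155 (96.1%) and reached 2-fold in 84. Where the second probe set itself had an array at 100 or more, the sign was the same in 57 of 57 higher and 49 of 49 lower genes.

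Promoters of mitotic and replication genes are shown first, because these groups, described below, differ in the share of genes that hold some short motifs. Sequences were taken from the RefSeq promoter table of build GRCm38.p6, which matched 105 of the 126 mitotic genes analysed, with 117 promoters of 300 bases (250 before the start and 50 after it). The cell-cycle homology element was searched as TTTGAA, as its reverse complement TTCAAA and as the palindrome TTCGAA, and the CCAAT box as CCAAT or its reverse complement ATTGG. For 7 mitotic genes that were at least 2-fold higher, the 100 bases before the start are printed 5′ to 3′ in the direction of the gene, with both motifs in capitals.
Espl1: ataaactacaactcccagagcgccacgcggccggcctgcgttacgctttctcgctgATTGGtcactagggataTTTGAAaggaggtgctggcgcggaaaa
Fam83d: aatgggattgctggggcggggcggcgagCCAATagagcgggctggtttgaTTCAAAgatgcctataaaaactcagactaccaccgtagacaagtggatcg
Kif11: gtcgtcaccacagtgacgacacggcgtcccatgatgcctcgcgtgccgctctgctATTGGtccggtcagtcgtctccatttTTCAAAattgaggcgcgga
Depdc1a: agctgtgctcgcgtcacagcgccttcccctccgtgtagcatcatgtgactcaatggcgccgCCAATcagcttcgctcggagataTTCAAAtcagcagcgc
Prc1: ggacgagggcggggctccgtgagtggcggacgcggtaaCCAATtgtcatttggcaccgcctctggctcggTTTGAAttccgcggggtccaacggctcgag
Cdc20: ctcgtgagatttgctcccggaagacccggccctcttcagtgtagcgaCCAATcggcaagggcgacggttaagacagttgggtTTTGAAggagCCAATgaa
Ube2c: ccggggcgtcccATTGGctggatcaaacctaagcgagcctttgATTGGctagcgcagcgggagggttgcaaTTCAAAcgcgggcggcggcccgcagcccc
These are the 7 with the largest difference among those with both motifs in this stretch and a brighter array at 100 or more. The choice left out the genes of a single chromosome, so a gene with a larger difference may be missing. In GRCm38.p6 the stretch of Espl1 is chr15:102296193-102296292, that of Fam83d chr2:158767999-158768098, that of Kif11 chr19:37376282-37376381 and that of Depdc1a chr3:159495333-159495432. The stretch of Prc1 is chr7:80294376-80294475 and that of Ube2c chr2:164769829-164769928, all on the plus strand, while Cdc20 is on the minus strand at chr4:118437344-118437443. Each lies just upstream of the annotated start of its gene.

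Over the 300-base windows, the homology element was present in 69.5% of the promoters of mitotic genes that were 2-fold higher and in 43.1% of those of mitotic genes that were not. It was present in 19.2% of all 32851 promoters in the table, in 13.7% of those of the genes analysed and in 9.16% of those of the 2-fold lower genes. The CCAAT box was present in 79.7% of promoters of the higher mitotic genes and in 37.4% of all promoters. Both motifs together occurred in 61.0% of the former and 7.52% of all, and in 5.51% of promoters of the genes analysed. Promoters of mitotic genes that were not 2-fold had the CCAAT box in 53.4% and both motifs in 25.9%. Among 2-fold higher genes outside the mitotic lists, 21.7% of promoters had the homology element and 11.9% had both motifs. These shares describe letters in a window, and neither binding nor promoter activity was measured.

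Replication genes were also searched for the E2F motif. The E2F motif was searched as TTCCCGC or TTGGCGC and their reverse complements GCGGGAA and GCGCCAA. It was present in 48.2% of the 56 promoters of the DNA replication list, in 19.7% of the mitotic promoters, in 11.6% of those of the genes analysed and in 6.81% of all promoters. The homology element was present in 21.4% of the replication promoters. The CCAAT box was common to both groups, in 53.6% of replication and 66.7% of mitotic promoters. Printed next are the 100 bases before the start of 4 replication genes, with only this motif in capitals. They have the largest difference among replication genes with the motif there and a brighter array at 100 or more. The chromosome left out for the mitotic genes was left out here too.
Gins3: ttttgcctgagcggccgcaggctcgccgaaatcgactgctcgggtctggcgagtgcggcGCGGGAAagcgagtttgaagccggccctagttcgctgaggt
Rrm1: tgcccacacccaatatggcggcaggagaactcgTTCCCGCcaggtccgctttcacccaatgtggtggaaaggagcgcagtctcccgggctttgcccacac
Rpa2: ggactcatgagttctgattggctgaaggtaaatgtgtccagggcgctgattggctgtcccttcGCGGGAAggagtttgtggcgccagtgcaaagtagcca
Prim1: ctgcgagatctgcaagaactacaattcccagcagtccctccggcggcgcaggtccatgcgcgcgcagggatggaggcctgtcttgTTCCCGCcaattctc
In GRCm38.p6 these are chr8:95633459-95633558 for Gins3, chr7:102441595-102441694 for Rrm1, chr4:132768260-132768359 for Rpa2 and chr10:128015115-128015214 for Prim1, all on the plus strand and just upstream of the annotated start. Of these genes only Gins3, a subunit of the replicative helicase complex, reached 2-fold (6.67 against 5.49, a difference of 1.19). Rrm1, the large subunit of ribonucleotide reductase, differed by 0.83, Rpa2, which coats single-stranded DNA, by 0.62 and the primase gene Prim1 by 0.61.

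Mitotic genes were higher in Sca1+ cells across every step of division that was listed. Over the 4 mitotic lists (kinetochore, checkpoint, kinases and cyclins, spindle and cytokinesis), 62 of 126 genes passed the 2-fold rule as higher and 0 as lower, against 3.07% and 3.33% of all genes. The median difference was 0.99, and 120 of the 126 lay above 0. The same shares of all genes, 3.07% higher and 3.33% lower, and the median of -0.01 are the background to every list described here. The lists were chosen with earlier results of these data known, so a share above this background is a description only. In a sorted bulk sample, a larger share of dividing cells and more of these transcripts per cell cannot be told apart.

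Kinetochore and centromere genes, which attach chromosomes to the spindle, had 20 of 36 members higher and all 36 above 0, with a median of 1.11. Cenpa, the centromeric histone, read 9.39 in Sca1+ and 7.72 in Sca1- cells. Ndc80, which holds the microtubule end, read 7.61 and 6.04. Oip5, which helps load the centromeric histone, read 6.98 and 5.54, and the centromere protein gene Cenpi 7.96 and 6.56. All 4 differences lay between 1.40 and 1.67.

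Checkpoint and anaphase genes were less uniform, with 7 of 25 higher, 5 below 0 and a median of 0.49. Mastl, a kinase that holds a phosphatase in check at mitotic entry, read 7.55 against 5.76. Espl1, the separase that cuts cohesin, read 7.71 against 5.96, and Cdc20, which activates the anaphase-promoting complex, 10.69 against 9.38. Ttk, the checkpoint kinase, differed by 1.49, but its second probe set gave -0.28 and the mean of its probe sets 0.61.

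Mitotic kinases, cyclins and their regulators had 12 of 26 members higher and 25 above 0, with a median of 0.95. Nek2, a kinase of centrosome separation, had the largest difference of this list at 8.74 against 6.82, which is 3.79-fold, and its other probe sets gave 0.84 and 1.44. The phosphatase gene Cdc25c, which activates the main mitotic kinase, read 7.44 against 5.84. Plk1, a kinase of spindle assembly, read 8.38 against 6.93. Cdk1, the main mitotic kinase itself, read 10.33 against 9.27. Aurka, a spindle-pole kinase, differed by 1.57 on its brightest probe set and by 0.78 when its probe sets were averaged.

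Among spindle, condensin and cytokinesis genes 23 of 39 were higher and all 39 lay above 0, with a median of 1.11. Ckap2, a spindle-associated protein, read 9.61 against 7.85, Racgap1, which positions the cleavage furrow, 8.86 against 7.17, and Hmmr, a spindle protein, 8.93 against 7.31. Dlgap5, which stabilizes spindle microtubules, read 7.17 against 5.55. The proliferation marker Mki67 was below the 2-fold line at 10.65 against 9.80, and Top2a, which untangles chromosomes, stood just above it at 11.19 against 10.15. With probe sets averaged, the Top2a difference was 0.60. Of the 32 kinesin motors, which move along microtubules, 10 were higher, 0 lower and 12 below 0, with a median of 0.12. Kif4, Kif11 and Kif23 are counted in both of these lists. The 4 with the largest difference were the mitotic motors Kifc1 (1.77), Kif2c (1.71), Kif20a (1.67) and Kif20b (1.64), each on the log2 scale.

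**Figure D2:**
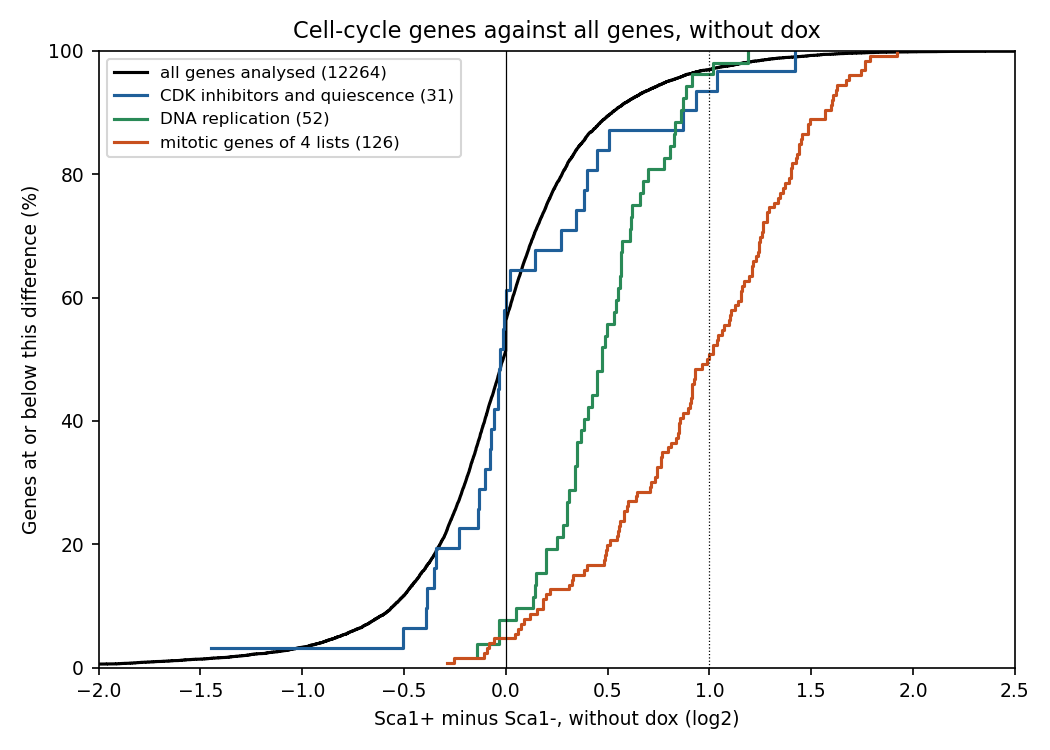
The curves give the share of genes, in percent, whose log2 difference (Sca1+ minus Sca1-, without dox) is at or below the value on the horizontal axis, for all 12264 genes and for 3 groups; the dotted line marks 2-fold higher. The curve of the 126 mitotic genes crosses the 50% level near its median of 0.99, that of the 52 replication genes at 0.47, and that of the 31 CDK inhibitors and quiescence genes stays near the curve of all genes.

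DNA replication genes were displaced less far but in nearly all members. Only 2 of 52 were at least 2-fold higher (Gins3 and Asf1b, a histone chaperone, at 1.19 and 1.02) and 0 lower, yet 48 lay above 0 and the median was 0.47. Fen1, the flap nuclease of lagging-strand synthesis, differed by 0.92 and Dbf4, which activates the kinase that fires origins, by 0.89. When the arrays were set to the same median over all probe sets, which adds 0.22 to every difference, the count of higher replication genes went from 2 to 10. Fen1 and Dbf4 pass 2-fold under it, as do Mki67, Skp2, E2f8, Ccne2, Cdkn2c, Cdkn1a, Lama3, Dst, Abcg2 and Idi1, which are described here and below by their values under 2-fold.

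Regulators of the G1 to S transition had 1 of 24 members higher, with a median of 0.30. That gene was E2f7, a repressor of the E2F family, at 8.26 against 6.89. Skp2, the ubiquitin ligase subunit that removes p27, differed by 0.95, the repressor gene E2f8 by 0.93 and the cyclin gene Ccne2 by 0.88.

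CDK inhibitors and quiescence genes did not lie opposite to the mitotic genes. Of 31 measured, 2 were higher and 1 lower, with a median of -0.03 that became 0.20 when the arrays were set to the same median over all probe sets. Gas1, a growth-arrest surface protein, was higher in Sca1+ cells at 9.87 against 8.45, a difference of 0.99 when its probe sets were averaged. The inhibitor gene Cdkn2d differed by 1.04. Cdkn2c read 8.88 against 7.95 and the p21 gene Cdkn1a 8.74 against 7.87, both under 2-fold. Of 25 p53 targets, 1 was higher and 0 lower. It was Sesn1, a stress-response gene, at 7.61 against 6.40, a difference of 0.69 with its probe sets averaged.

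Genes of homologous recombination and Fanconi repair, which mend breaks and cross-links during and after replication, had 7 of 24 members higher, 0 lower and a median of 0.65. Fanci, a subunit of the clamp at the centre of the Fanconi pathway, read 6.92 against 5.66, a difference of 0.63 with its probe sets averaged. Rad51ap1, a partner of the recombinase, read 8.98 against 7.77. Outside the mitotic, replication, G1 to S, repair and kinesin lists, 297 of the 376 higher genes remained.

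The 15 largest differences on the higher side, among genes with a brighter array at 100 or more, held only 1 mitotic gene, Nek2. Serpinb1a, an intracellular inhibitor of neutrophil-type proteases, read 7.01 in Sca1+ cells against the floor value in Sca1- cells, which makes it at least 12.9-fold higher. Its second probe set gave a smaller difference of 0.70. Among all serpins 4 of 14 were higher and 0 lower, with a median of 0.57, although only Serpinb1a of those 4 had an array at 100 or more.

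Relatives of Sca1 in the Ly6 family were higher in 4 of 13 members and lower in 0. Ly6d, a surface protein of keratinocytes and B cells, read 8.34 against 5.29, an 8.27-fold difference. Ly6e, a widely expressed member, read 8.92 against 6.39, although its second, dimmer probe set gave 0.71. Lynx1, a modulator of acetylcholine receptors, read 7.50 against 6.33 and Lypd3 7.84 against 6.79. The other 9 members analysed were within 2-fold, and the family's median was 0.27.

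Receptors of the Eph family bind membrane-tethered ephrins on neighbouring cells. Of 15 genes for these receptors and ephrins, counted together, 3 were higher and 0 lower. Epha7 read 7.30 against 5.06, with its second probe set at 1.40 and the mean of its probe sets at 0.93. Ephb6, which lacks kinase activity, read 7.22 against 5.20. The third, Ephb1, was dimmer at 6.12 against 4.83 and was chosen after its value was seen.

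Several of the remaining leading genes encode secreted or surface proteins. Tgfbi, a secreted matrix protein induced by TGF-beta, read 11.06 against 9.05, and its other 3 probe sets gave 2.37 to 2.57. Sparc, a collagen-binding matricellular protein, read 10.07 against 7.90 with its second probe set at 2.44, and Smoc2, which shares a domain with it, 7.27 against 5.22. Parm1, a mucin-like protein, read 7.48 against 5.36. Galnt18, of the enzyme family that begins mucin-type glycan chains, read 7.66 against 5.15. The list is completed by Ltbp1 (2.68), which binds latent TGF-beta and differed by 0.89 with probe sets averaged, Rai2 (2.61), the BCL2-family gene Bok (2.06) and the neuronal calcium sensor gene Vsnl1 (1.93). Dsc3, a desmosomal cadherin, differed by 2.35 but was left out because its second probe set gave -0.12.

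Luminal genes were lower in Sca1+ cells. Of 33 genes for luminal keratins, junctions and their regulators, 15 were at least 2-fold lower (45.5%, against 3.33% of all genes), 0 higher and 28 below 0, with a median of -0.73. Krt7, a simple-epithelial keratin, read 7.60 in Sca1+ and 9.97 in Sca1- cells. Krt8 and Krt18, also keratins of simple epithelium, read 7.67 against 9.36 and 9.77 against 11.37. These 3 keratins were all lower, by 1.60 to 2.37 on the log2 scale.

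Tight-junction genes went the same way. The claudin gene Cldn7 read 7.62 against 9.52, Cldn3 3.87 against 6.54 and Cldn4 5.17 against 6.37. Tjp3, a scaffold of tight junctions, read 4.52 against 6.71 and Marveld3, a membrane protein of these junctions, 5.90 against 7.70. Epcam, the pan-epithelial adhesion molecule, read 11.33 against 11.69, a difference of only -0.36 that did not reach 2-fold. Over the whole claudin family 3 of 13 were lower and 0 higher.

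Genes of luminal progenitors and alveolar cells were lower by a larger median, -0.99, with 10 of 21 at least 2-fold lower (47.6%) and 0 higher. Elf5, the transcription factor of alveolar fate, read 4.84 against 7.02, although its second probe set gave -0.18. Kit, a receptor kinase of luminal progenitors, read 5.14 against 7.40. Cd14, a co-receptor for bacterial lipopolysaccharide that marks these cells, read 7.66 against 10.31. Aldh1a3, which makes retinoic acid, differed by -2.17, or by -0.82 with its probe sets averaged. The milk defence proteins Lcn2 and Ltf read 9.89 against 12.03 and 6.89 against 8.65. Setting the arrays to the same median over all probe sets left this median at -0.77 and that of the luminal keratin and junction list at -0.50.

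Hormone-sensing genes did not share 1 direction: 4 of 11 were lower and 2 higher. Cited4, a transcriptional co-activator, read 5.58 against 7.43 and differed by -0.93 with probe sets averaged. Wnt4, a Wnt ligand made by progesterone-responsive cells, was higher at 7.43 against 6.16. The oestrogen receptor gene Esr1 read 6.14 against 5.68, the progesterone receptor gene Pgr 3.72 against 4.39 and Gata3, a luminal transcription factor, 3.90 against 5.43. These last 3 genes were dim, and with the floor raised to a linear level of 50 the Gata3 difference was 0.

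Basal genes leaned towards Sca1+ cells without reaching 2-fold in most members. Of 35 measured, 3 were higher and 3 lower, 25 lay above 0 and the median was 0.46. Trp63, which encodes p63, read 10.14 against 8.77, with its second probe set at 1.46 and the mean of its probe sets at 0.98. The basal keratin genes Krt5 and Krt14 read 11.46 against 10.77 and 11.77 against 11.54. Over the alternative ways of processing, the Krt14 difference ran from -0.07 to 0.45, so its sign was not stable. The contractile gene Acta2 went slightly the other way at 7.65 against 7.93. The laminin chain gene Lama3 differed by 0.98 and the plakin gene Dst by 0.95, both just under 2-fold. The 3 lower members had no array at 100 or more.

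**Figure D3:**
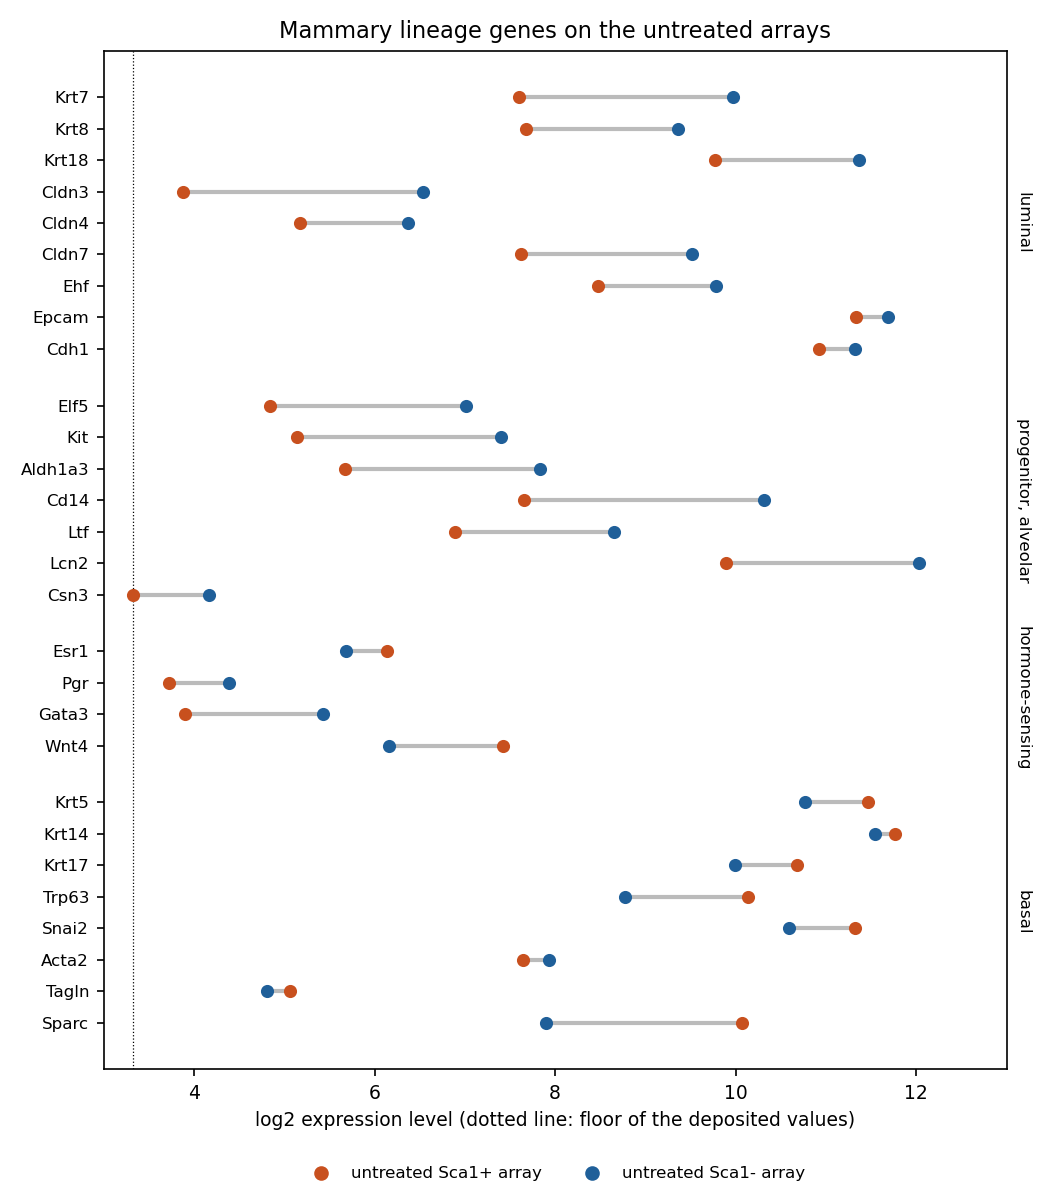
Each row is 1 gene, with its log2 level on the untreated Sca1+ array (orange) and the untreated Sca1- array (blue) joined by a bar, grouped by the layer or cell type the gene marks. Luminal and progenitor genes have their blue point to the right, as in Krt7 (7.60 against 9.97), whereas most basal genes have the orange point to the right, as in Trp63 (10.14 against 8.77).

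Surface markers used to enrich mammary stem and progenitor cells gave no common direction. Of 29 measured, 2 were higher and 2 lower, with a median of -0.05 that became 0.18 with the arrays at the same median over all probe sets. Kit was the largest of the bright members. The drug-efflux pump gene Abcg2 read 6.69 against 5.76, the receptor gene Lgr6 8.96 against 8.23 and the integrin gene Itga6 9.47 against 8.85, all under 2-fold.

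Cell types outside the epithelium left few traces on either array. Of 11 fibroblast markers 10 were at the floor on both untreated arrays, including Dcn, Col1a1 and Col3a1. The endothelial markers were at the floor in 7 of 9 on the Sca1+ and 9 of 9 on the Sca1- array, including Pecam1 and Cdh5 on both. Leukocyte markers were at the floor in 8 and 7 of 11, including Ptprc. The 9 T-cell markers were at the floor in 9 and 8, and the 5 adipocyte markers in 5 and 4. The highest level of any of these genes was 5.15, for the fibroblast and progenitor receptor gene Pdgfra in Sca1- cells. Of 22 genes of apoptosis and the stress of sorting, 0 were 2-fold different, with a median of -0.12 that became 0.11 with the arrays at the same median over all probe sets.

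The largest single difference was that of Igfbp5, a secreted IGF-binding protein, at 5.40 in Sca1+ and 10.12 in Sca1- cells, which is 26.5-fold lower. A second, dimmer probe set gave -1.25. Its relative Igfbp3 had the opposite sign, at 10.65 against 9.09, with a second probe set at 1.65. Across 17 genes of the IGF axis 3 were lower and 2 higher, and Irs1, an adaptor of the insulin and IGF receptors, was among the lower at 7.72 against 9.30.

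Ion and solute transport genes made up 4 of the 15 largest differences on the lower side. Slc15a2, a peptide transporter, read 3.51 against 7.53, and its other 2 probe sets gave -1.61 and -1.48. Atp6v1b1, a subunit of the proton pump V-ATPase found in acid-secreting epithelia, read 5.98 against 9.78, which is 13.9-fold lower. Foxi1, a transcription factor of ion-transporting cells in the kidney and inner ear, read 4.60 against 7.63. Over 20 V-ATPase subunits, a list added after the values were seen, 3 were lower and 0 higher, with a median of -0.23.

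Of 30 genes for water, chloride and epithelial ion transport, 9 were lower (30.0%) and 1 higher, with a median of -0.36 that became -0.13 with the arrays at the same median over all probe sets. Of the 9, 5 had an array at 100 or more. Kcne3, a regulatory subunit of potassium channels, read 5.68 against 8.81. Ano1, a calcium-activated chloride channel, read 8.15 against 10.82, with a second probe set at -2.29. The sodium pump subunit gene Atp1b1 read 5.63 against 7.89 and the water channel gene Aqp5 6.41 against 8.32. The 1 higher gene was Aqp3, a water and glycerol channel, at 6.50 against 5.09. Gabrp, a subunit of a chloride-conducting GABA receptor that marks part of the mammary epithelium, read 6.55 against 9.59.

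Solute carriers as a family were lower in 19 of 228 members (8.33%, against 3.33% of all genes) and higher in 3 (1.32%, against 3.07%), and the family's median was -0.03. Only 5 of the 19 had an array at 100 or more, and dim genes passed 2-fold more often over all genes, in 11.6% of those with a mean level under 5. After Slc15a2, the bright members with the largest differences were the glutamate transporter gene Slc1a2 at 7.85 against 10.04, the monocarboxylate transporter gene Slc5a8 at 7.23 against 9.17 and the amino-acid transporter gene Slc43a2 at 5.29 against 6.78. The second probe set of Slc1a2 gave -2.26 and that of Slc43a2 -0.40.

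**Figure D4:**
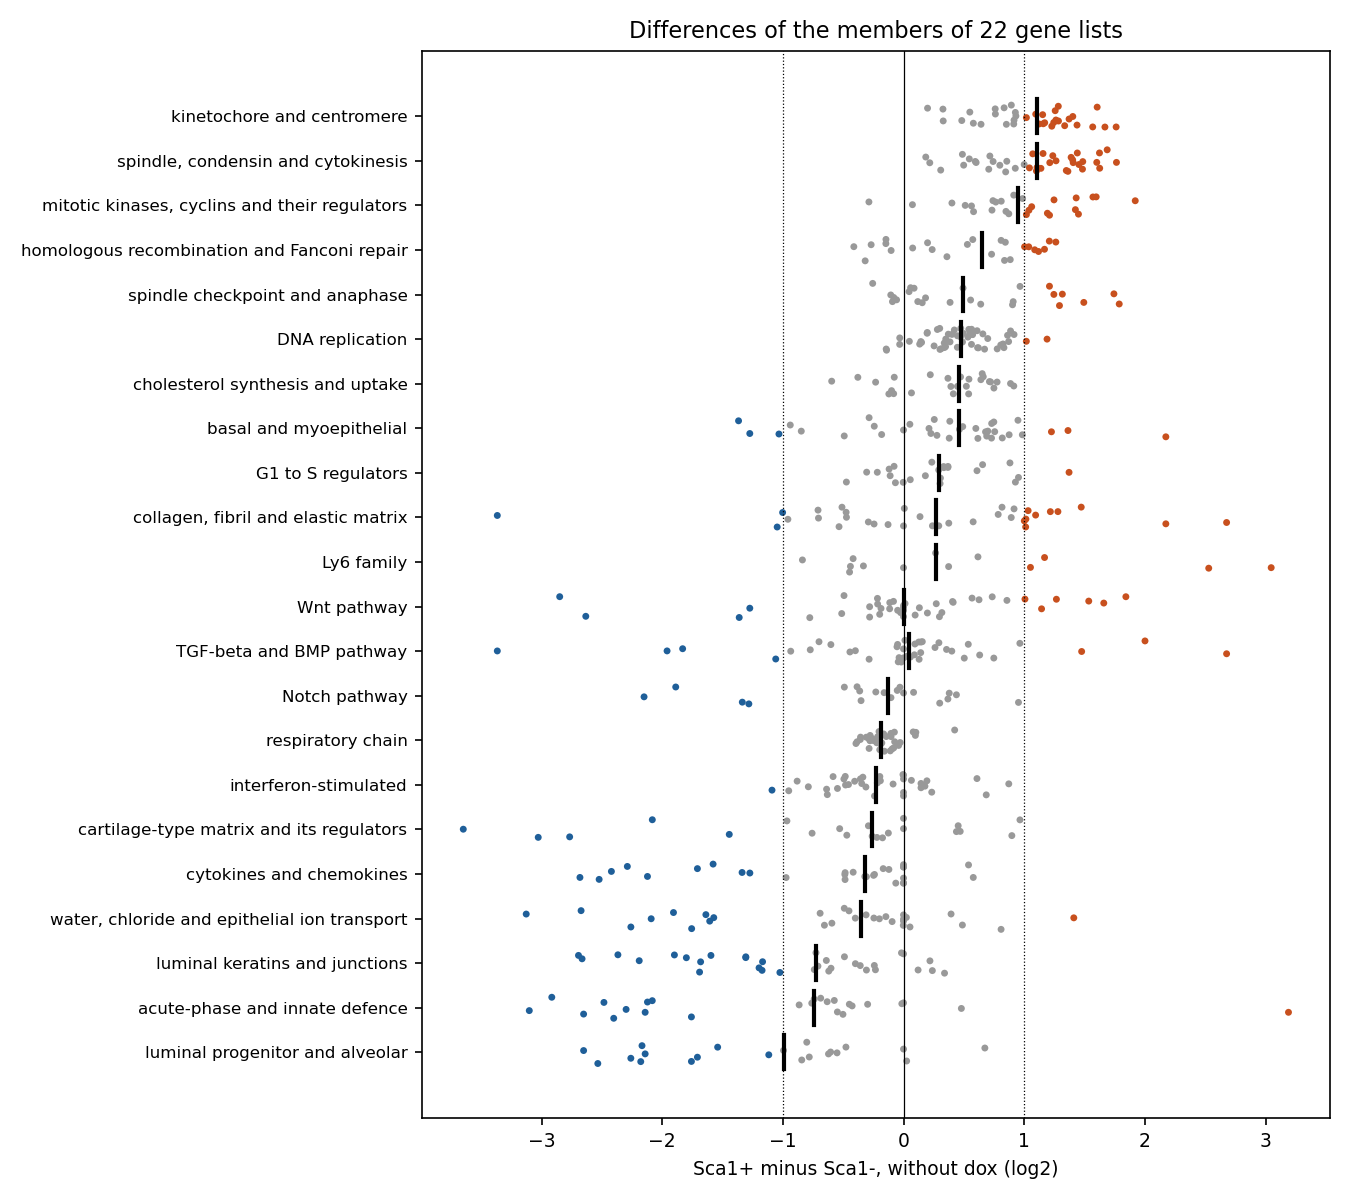
Each point is 1 gene of the list named at the left, placed by its log2 difference (Sca1+ minus Sca1-, without dox); orange points are at least 2-fold higher, blue points at least 2-fold lower, and black bars are list medians. The 3 mitotic lists at the top have medians of 0.95 to 1.11 and no blue point, and the luminal and acute-phase lists at the bottom have medians of -0.73 to -0.99.

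Acute-phase and innate defence genes were lower in 10 of 25 members (40.0%) and higher in 1, with a median of -0.74 that became -0.52 with the arrays at the same median over all probe sets. Chil1, a chitinase-like lectin, read 6.62 against 9.72. Hp, the plasma haemoglobin-binding protein, read 7.63 against 10.55, and Lbp, which binds lipopolysaccharide, 5.97 against 8.37. Sftpd, a lung surfactant collectin that binds microbial sugars, read 4.85 against 8.40. The 1 higher gene was the defensin gene Defb1, at 6.51 in Sca1+ cells and at the floor in Sca1- cells.

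Cytokine and chemokine genes were lower in 9 of 29 members (31.0%) and higher in 0. The median of -0.32 became -0.10 with the arrays at the same median over all probe sets and 0 with the floor at 50, and it was -1.92 over the 8 members with an array at 100 or more. The neutrophil-attracting chemokine genes Cxcl1 and Cxcl5 read 8.10 against 10.62 and 7.26 against 9.68. Csf3, which drives granulocyte formation, read 6.57 against 8.86, and Il1rn, the interleukin-1 receptor antagonist, 6.18 against 8.30. Interferon-stimulated genes differed less, with 1 of 36 lower, 0 higher and a median of -0.23 that shrank to -0.00 with the arrays at the same median over all probe sets. MHC class I and antigen-processing genes had 1 of 19 higher and 0 lower.

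Cartilage-type matrix genes were lower in 5 of 21 members (23.8%) and higher in 0. Col9a1, a collagen of the cartilage fibril surface, read 5.77 against 9.41, with its second probe set at -1.80. Col2a1, the main cartilage collagen, read 8.43 against 11.20. Cnmd, which encodes the cartilage protein chondromodulin, read 4.04 against 7.07, and Sox8, a relative of the cartilage regulator Sox9, 4.90 against 6.98. The list's median was -0.26, or -0.04 with the arrays at the same median over all probe sets, so these members stood apart from most of their list. Mgp, an inhibitor of calcification made by cartilage and by other tissues, read 7.16 against 10.64.

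Other matrix genes leaned the other way, though not uniformly. Among 34 genes of collagen, fibrils and elastic matrix 10 were higher (29.4%) and 3 lower (8.82%), while 20 lay above 0 and 13 below. The list's median of 0.27 became 0 with the floor at 50. Col18a1, a basement-membrane collagen, read 9.25 against 7.97, and Col7a1, the anchoring-fibril collagen of skin, 8.96 against 7.74. Ltbp2, a microfibril protein, had the opposite sign to Ltbp1 at 4.27 against 7.63. Fibronectin, Fn1, was lower at 9.73 against 10.78, with its second probe set at -1.61, and differed by -0.82 with the arrays at the same median over all probe sets. Of 26 collagen chains 7 were higher, and the only 2 lower ones were Col9a1 and Col2a1.

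Signalling pathways had members on both sides. In the TGF-beta and BMP list 3 of 40 were higher and 4 lower, with a median of 0.04. Beside the latent binding proteins and Tgfbi, the ligand gene Tgfb3 was lower at 5.41 against 7.37. In the Wnt list 6 of 41 were higher (14.6%) and 4 lower (9.76%). The ligand gene Wnt5b read 5.67 against 8.31, with its second probe set at -3.30, and the feedback inhibitor gene Nkd2 9.85 against 11.21. Sostdc1, a secreted antagonist of BMP and Wnt ligands, was higher at 7.94 against 6.09.

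Notch pathway genes had 4 of 20 lower and 0 higher, with a median of -0.13 that became 0.09 with the arrays at the same median over all probe sets. Nrarp, a feedback target of Notch, read 6.77 against 8.66 and the receptor gene Notch3 5.96 against 7.30. The ligand gene Dll1 and the receptor gene Notch2 were within 2-fold. In the EGF, FGF and HGF list 6 of 44 were higher and 4 lower. The heparin-binding growth factor gene Ptn read 10.97 against 9.31, with its second probe set at 2.12, while the ERK phosphatase gene Dusp4 was lower at 7.75 against 9.31 and the EGF-family ligand gene Ereg at 7.05 against 8.25. The Ereg difference was -0.97 with the arrays at the same median over all probe sets.

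Metabolic and housekeeping lists had few genes at 2-fold. None of 26 genes of cholesterol synthesis and uptake was 2-fold different, although 19 lay above 0 and the median was 0.46; Idi1, an isoprenoid isomerase, differed by 0.91 and Fdps, which makes farnesyl diphosphate, by 0.78. Genes of the ATF4 amino-acid response had 0 of 33 higher and 1 lower, with a median of 0.27. The 35 respiratory-chain genes had 0 at 2-fold and 31 below 0, with a median of -0.19 that became 0.03 with the arrays at the same median over all probe sets. The 39 cytosolic ribosomal protein genes had 0 at 2-fold and a median of -0.18, smaller in size than the shift of 0.22 that this scaling adds. In the NRF2 and glutathione list the 1 lower gene was Gsta4, a transferase for lipid aldehydes, at 8.18 against 10.09. Chchd10, a protein of the mitochondrial intermembrane space, was 6.79-fold lower at 7.54 against 10.30, with a second probe set at -2.48.

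The series title names Bcl11b, whose difference depended on the probe set. Of 16 genes of the Bcl11 and NuRD list, which includes histone deacetylases and chromatin-remodelling subunits, 0 were 2-fold different on the probe sets kept here and the median was 0.04. Bcl11b read 6.87 in Sca1+ and 6.29 in Sca1- cells on the probe set kept here, a difference of 0.58. By the probe set that was brightest on the untreated arrays alone, the Bcl11b difference was 1.31, and with its probe sets averaged it was 1.04, so both of these choices put it past 2-fold. Among 18 epithelial-to-mesenchymal factors and cadherins 1 was higher and 1, Fn1, lower. The epithelial cadherin gene Cdh1 read 10.92 against 11.32 and the filament gene Vim 10.60 against 11.54.

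The same difference measured with dox, on arrays that share no sample with the untreated arrays, gave 309 genes at least 2-fold higher (2.52%) and 366 lower (2.98%). Of the 376 genes higher without dox, 280 had the same sign with dox and 132 were again at least 2-fold higher, which is 35.1% of the untreated list and 42.7% of the dox list. Of the 408 lower genes, 312 had the same sign and 108 were again at least 2-fold lower, 26.5% and 29.5% of the lists. The median difference with dox of the genes that were higher without it was 0.58, and that of the lower genes -0.51. Both lists were chosen by their size without dox, so smaller values on other arrays can follow from that choice alone. The difference between the values with and without dox has no test here.

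Mitotic genes were higher in Sca1+ cells both without and with dox. Without and with dox, the median of the kinetochore list was 1.11 and 2.04, that of the spindle and cytokinesis list 1.11 and 2.18, and that of the kinases and cyclins 0.95 and 1.44. The checkpoint and anaphase list did not follow this pattern, with medians of 0.49 and 0.40, although 7 of its 25 genes were at 2-fold without dox and 10 with it. The replication list stood at 0.47 and 0.93, with 22 of 52 genes at 2-fold with dox. Depdc1a, a mitotic spindle-associated protein, differed by 1.40 without dox and 3.69 with it, and Cdk1 by 1.06 and 3.04. In 98 of the 126 mitotic genes the difference was larger with dox, as the plot of the difference without and with dox shows.

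Among the lower genes, luminal keratins and junction genes had 15 of 33 members at 2-fold without dox and 9 with it, and progenitor and alveolar genes 10 and 9 of 21. Their medians were -0.73 and -0.64 for the former and -0.99 and -0.54 for the latter. Acute-phase genes had 10 of 25 at 2-fold both times, with medians of -0.74 and -0.29. Some single genes had differences of like size: Krt7 differed by -2.37 and -2.42, Col2a1 by -2.77 and -2.94 and Kcne3 by -3.13 and -3.16, the latter a bound because the Sca1+ array with dox was at the floor. Lcn2 differed by -2.14 without dox and -4.86 with it. In contrast Mgp differed by -3.48 without dox and 0.25 with it. Its Sca1+ level was 7.16 without dox and 10.75 with it, and its Sca1- level 10.64 and 10.50.

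Several leading higher genes also had small differences on the arrays with dox. They were picked for their large differences without dox, and whether the smaller values reflect that choice or dox was not tested. Tgfbi stood at 2.00 and -0.16, Parm1 at 2.12 and -0.18, Epha7 at 2.24 and 0.22 and Smoc2 at 2.05 and -0.00. With dox the Sca1+ and Sca1- levels were low for Tgfbi (5.50 and 5.66), Parm1 (4.93 and 5.11) and Smoc2 (4.63 and 4.64). Those of Epha7 were 7.47 and 7.24. Galnt18 was at the floor in Sca1+ cells with dox. Basal genes had a median of 0.46 without dox and -0.05 with it, and cholesterol genes 0.46 and -0.03. Of the 376 higher genes 109 lay within 0.25 of no difference with dox, as did 117 of the 408 lower genes. The share of all genes in that band with dox was not counted, so these counts have no background. Without dox the 25th and 75th percentiles over all genes analysed were -0.26 and 0.20.

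**Figure D5:**
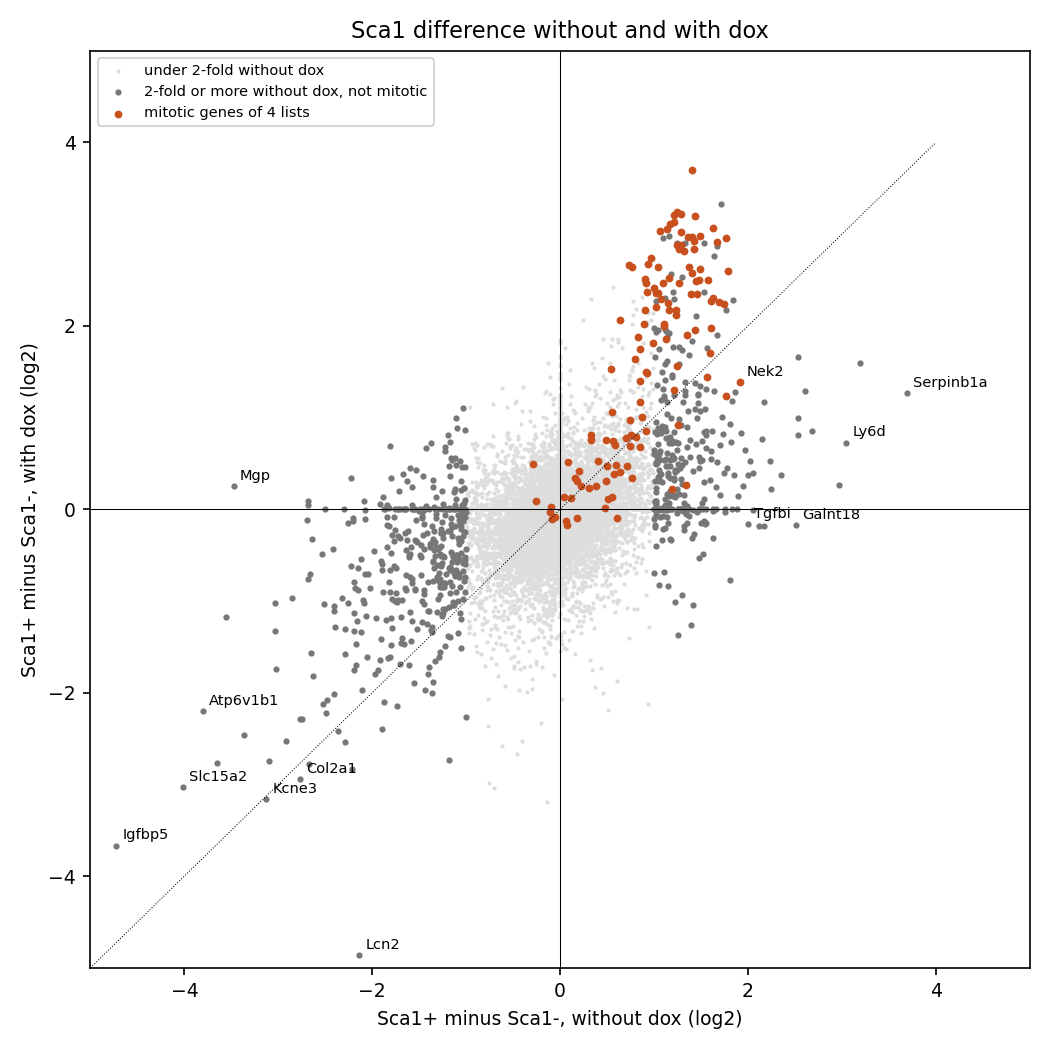
Each point is 1 of 12264 genes, placed by its Sca1+ minus Sca1- log2 difference without dox (horizontal) and with dox (vertical); the dotted line marks equal differences. The mitotic genes (orange) lie mostly above the dotted line at upper right, Igfbp5 (-4.73 and -3.67) and Slc15a2 lie at lower left, and Mgp (-3.48 and 0.25) and Tgfbi (2.00 and -0.16) lie near the horizontal axis.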

How the data were processed

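Biotin-labelled cRNA was made from total RNA by an Affymetrix 3' IVT protocol, per the labels. The authors deposited log2 expression levels for 45101 probe sets on 4 arrays, 1 per group. Not given in the sources used here are the method of summarization, the scaling and the software. What an array can resolve at the low end is bounded by the floor at a linear level of 10. A platform annotation gave 1 gene symbol to 34958 probe sets, several to 932 (not used) and none to the other 9211, and symbols were updated through a RefSeq gene table of GRCm38.p6. Of several probe sets of a gene, the one brightest on average across the 4 arrays was kept, so a difference between probe sets can change a value.

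Differences of log2 levels were computed in Python 3.11.15 with pandas 2.3.3 and numpy 2.4.6, and the counting rule was tested on simulated data. Each group is 1 array, which leaves no replicate, test or p-value. The members and lists were chosen with earlier results of these data known. Named genes are the 15 largest differences in each direction among genes with a brighter untreated array at 100 or more (linear) and no second probe set of opposite sign, up to 4 bright members of each list by size of difference, and members that define a list. Other names were chosen after their values were seen. The lists number 43 and were described by counts and medians, to be read against those over all genes. The 9 alternatives covered scaling (3), the probe set per gene (2), the floor and the filter on low genes (3).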

Additional observations from a re-analysis of the deposited data

Results flagged for a closer look

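With a difference of at least 2-fold in both pairs of arrays, 5 genes had opposite signs without and with dox. The difference between the pairs was not tested, since each group has 1 array. Gas1, a growth-arrest surface protein, differed by 1.42 (Sca1+ minus Sca1-, log2) without dox and by -1.04 with it; its levels were 9.87 and 8.45 without dox and 5.27 and 6.31 with it. Nfatc1, a calcineurin-dependent transcription factor, differed by 1.22 and -1.01, and its other 4 probe sets gave 0.62 to 1.58 without dox. The other 3 genes were dim, with a value at the floor on at least 1 array. Gfra3, a co-receptor for artemin, differed by 1.39 without dox and -1.26 with it, both bounds. Pnmt, which makes adrenaline, differed by 1.26 without dox and, as a bound, -1.37 with it. The probe set kept for Sry, the testis-determining gene, differed by -1.03 without dox, a bound, and 1.10 with it. Its levels ran from 3.32 to 4.70 over the arrays, which does not show that the gene is expressed.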

How the results depend on the processing

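The balance of higher to lower genes depended on the processing. Setting the untreated arrays to the same median over all probe sets gave 643 higher and 276 lower genes in place of 376 and 408, so the share of higher genes among those at 2-fold went from 48.0% to 70.0%. Under the same setting 28.1% of the higher and 34.1% of the lower genes were again at 2-fold with dox, in place of 35.1% and 26.5%, so that the order of the shares turned. Raising the floor to 50, or keeping genes with an untreated array at 100 or more, left 207 higher and 162 lower genes, fewer by construction; under the latter filter the shares with dox were 50.7% and 51.2%. Quantile normalization gave 405 and 349, so under it and each of the settings above higher genes outnumbered lower ones, unlike in the deposited values. The cause was not tested. Averaging the probe sets of each gene gave 265 and 296. The 4 mitotic lists had 0 lower members under every alternative, with 17 to 27 of the kinetochore and 17 to 28 of the spindle genes higher, and the luminal keratin and junction list had 10 to 15 lower and 0 higher. The sign of the median was turned by a scaling alternative in 11 of 42 lists. Of the 174 named genes that were recomputed, 101 were at 2-fold, and 82 of these stayed there in every alternative that kept them. Some genes named above, such as Lcn2, Cldn3 and Kifc1, were not recomputed. No paired analysis was possible because each group has 1 array. The precision is limited by the number of arrays: the values carry no replicate error, and close to the floor a difference is only a bound.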
